A study of Sus scrofa with 2 samples.

Results

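Cyclins, cyclin-dependent kinases (CDKs) and the genes of mitosis were described in PSI, a smooth muscle cell clone from the ileum, the end of the small intestine, of the pig. Members were taken by gene symbol alone: cyclins A to H, numbered CDKs, CDC25 phosphatases, centromere proteins (CENP genes), kinesins (KIF genes), Aurora kinases, BUB genes and a set of named mitotic regulators such as PLK1, CDC20 and TPX2. The rule found 98 genes among the 14856 symbols of the table, which held 25880 gene identifiers. It used no measured value. A further 16 RefSeq symbols that match it, among them MKI67, CCNA2, AURKA, PTTG1, CDC25C, CDK5 and CENPB, were not paired with an identifier and were not analysed here.

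The study measured 1 group, PSI, as 2 RNA-seq libraries (replicates 1 and 2) of total RNA extracted with TRIzol. The cells were kept in DMEM with 10% fetal bovine serum and 1% antibiotics. The labels name no targeted gene and no treatment, and no resting, tissue or other-cell sample is part of the comparison. PSI is 1 clone, and nothing in the labels says that the libraries came from separate cultures, so each SD given here (n = 2) and each test reflects only how far these libraries differ, possibly for technical reasons. Values are in FPKM (fragments per kilobase of gene model, scaled to the library total), a unit per length in which the levels of genes can be compared. The library totals were 35176565 and 32217729. A single read in a 1 kb gene therefore stood for 0.0284 FPKM in replicate 1 and 0.0310 in replicate 2. Read numbers given for a gene are the smallest whole numbers that account for its values in both libraries, and the true numbers can be a multiple of them.

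The label was checked against marker genes. Of 9 smooth muscle markers, 7 reached 1 FPKM in both libraries, led by ACTA2 (693 ± 11.8), ACTG2 (479 ± 15.0) and CNN1 (254 ± 1.02). TAGLN (5.46 ± 0.175) and DES (2.90 ± 0.231) were the lowest of these 7. MYOCD, the coactivator of mature smooth muscle, was listed at 0, and the identifier paired with MYH11, a pairing not checked by position, had 0.491 ± 0.0433. Of 20 markers of epithelium, leukocytes, endothelium, nerve, interstitial cells of Cajal and fibroblasts, 4 reached 1 FPKM. They were CD14 of leukocytes (2.29 ± 0.0775), PDGFRA (2.24 ± 0.0149) and DCN (2.20 ± 0.445) of fibroblasts, and PECAM1 of endothelium (1.76 ± 0.231). These levels were near that of DES. From the same 20, CDH1, VIL1, PTPRC, CD3E, CDH5 and KDR were listed at 0 in both libraries.

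Cyclins are regulatory subunits that rise and fall through the division cycle and switch on the CDKs they bind. D cyclins with CDK4 or CDK6 phosphorylate the retinoblastoma protein in G1, cyclins E and A with CDK2 drive DNA synthesis, and cyclin B with CDK1 starts mitosis, after which the anaphase-promoting complex destroys cyclin B. Smooth muscle cells of the adult gut wall divide rarely, and in serum culture they can return to the cycle. In a bulk sample, the share of cells in a phase and the RNA per cell in that phase cannot be told apart.

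Most of the division machinery was expressed. Of the 98 members, 85 (86.7%) reached 1 FPKM in both libraries, against 61.5% of all symbols, and 55 (56.1%) reached 10 FPKM, against 32.8%. The median member had 12.1 FPKM, and the median symbol 3.90. On the log2(FPKM + 1) scale the medians were 3.71 and 2.29. The members made up 0.526% of all FPKM in replicate 1 and 0.532% in replicate 2. The 25 kinesins kept outside the mitotic group are of mixed function and lay lower than the rest. Of them, 17 reached 1 FPKM, and their median was 4.02 FPKM, although the cargo motors KIF1C and KIF5B had 83.8 and 82.5 FPKM. Of the other 73 members 68 reached 1 FPKM, with a median of 16.6 FPKM. With 1 group, these shares describe the clone and no test between conditions exists.

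**Figure D1:**
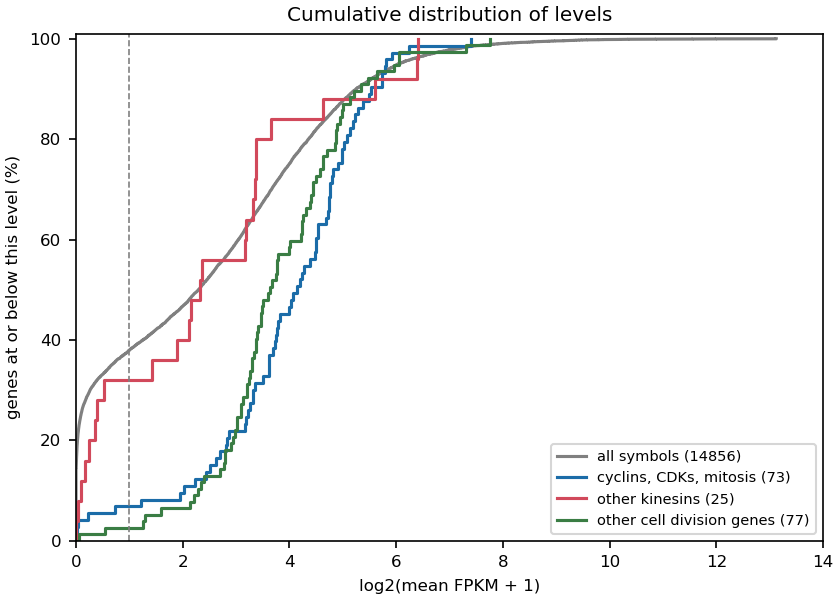
Cumulative distribution of log2(mean FPKM + 1) for all 14856 symbols (grey), the 73 cyclins, CDKs and mitotic regulators (blue), the 25 other kinesins (red) and 77 other cell division genes (green); the dashed line marks 1 FPKM. The blue and green curves lie to the right of the grey one over most of their length. The red curve lies above the grey one around 10 FPKM, a level that 5 of the 25 other kinesins and 32.8% of all symbols reached in both libraries.

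All 3 D-type cyclins and both of their kinases were abundant and close to one another. CCND3 had 44.5 and 45.9 FPKM in replicates 1 and 2, CCND1 had 40.7 and 40.4, and CCND2 had 34.9 and 36.3. Their partner kinases were somewhat lower, CDK4 with 35.4 and 33.3 FPKM and CDK6 with 21.1 and 23.2. The highest of these 5 genes lay 2.04-fold above the lowest. Summed, the D cyclins had 2.15 ± 0.0282 times the FPKM of CDK4 and CDK6. CDK4 was higher in replicate 1 and CDK6 in replicate 2, so their ratio was 1.68 and 1.43. The RefSeq entry matched to CDK6 by symbol is marked lncRNA (long non-coding RNA), not protein-coding. Whether the CDK6 level is that of the kinase transcript was not tested. For none of these 5 genes did most identifiers with the nearest numbers lie on its RefSeq chromosome. Their identifiers therefore could not be checked by position.

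Of the 5 measured genes of the S-phase set, 2 reached 1 FPKM. CCNE1 had 5.61 and 5.30 FPKM and CCNE2 had 8.43 and 8.79, so both E cyclins were expressed, with CCNE2 at 1.58 ± 0.111 times CCNE1. CDK2 (ENSSSCG00000037597), the kinase that cyclin E activates, had only 0.221 and 0.105 FPKM, from at least 23 and 10 reads. RefSeq places CDK2 on chromosome 5 at chr5:21365723-21372170 of Sscrofa11.1, with no other gene overlapping it. None of the 8 nearest-numbered identifiers that RefSeq places lies on that chromosome, so its identifier could not be checked in this way. The same holds for all 31 placed members with numbers of 18000 or more, none of which had most of its neighbours on its own chromosome. Whether CDK2 is this low in PSI or is missed by the counting was not tested. The germ-line cyclin CCNA1 had 0.0129 FPKM in replicate 1 and was listed at 0 in replicate 2, and CDK3 had 0.0186 and 0.0203. The level of cyclin A2, the somatic A cyclin, is not given here.

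The mitotic pair of cyclin B and CDK1 was abundant. CCNB1, the main B cyclin, had 55.4 and 53.4 FPKM, 2.04 ± 0.0853 times the level of CCNB2, which had 26.4 and 26.9. CDK1 had 31.6 and 33.6 FPKM, and its RefSeq model overlaps LOC100152879. CCNB3, a B cyclin best known from the germ line of other mammals, had 17.96 and 16.9 FPKM from at least 2704 and 2330 reads. Its RefSeq model on the X chromosome overlaps the non-coding gene LOC110257723, and no source used here states whether the counting used strand, so the reads of these genes cannot be told apart. Of the CDC25 phosphatases, which remove inhibitory phosphates from CDKs, CDC25B had 26.0 and 26.2 FPKM and CDC25A had 8.44 and 8.34, a ratio of 3.11 ± 0.0402.

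**Figure D2:**
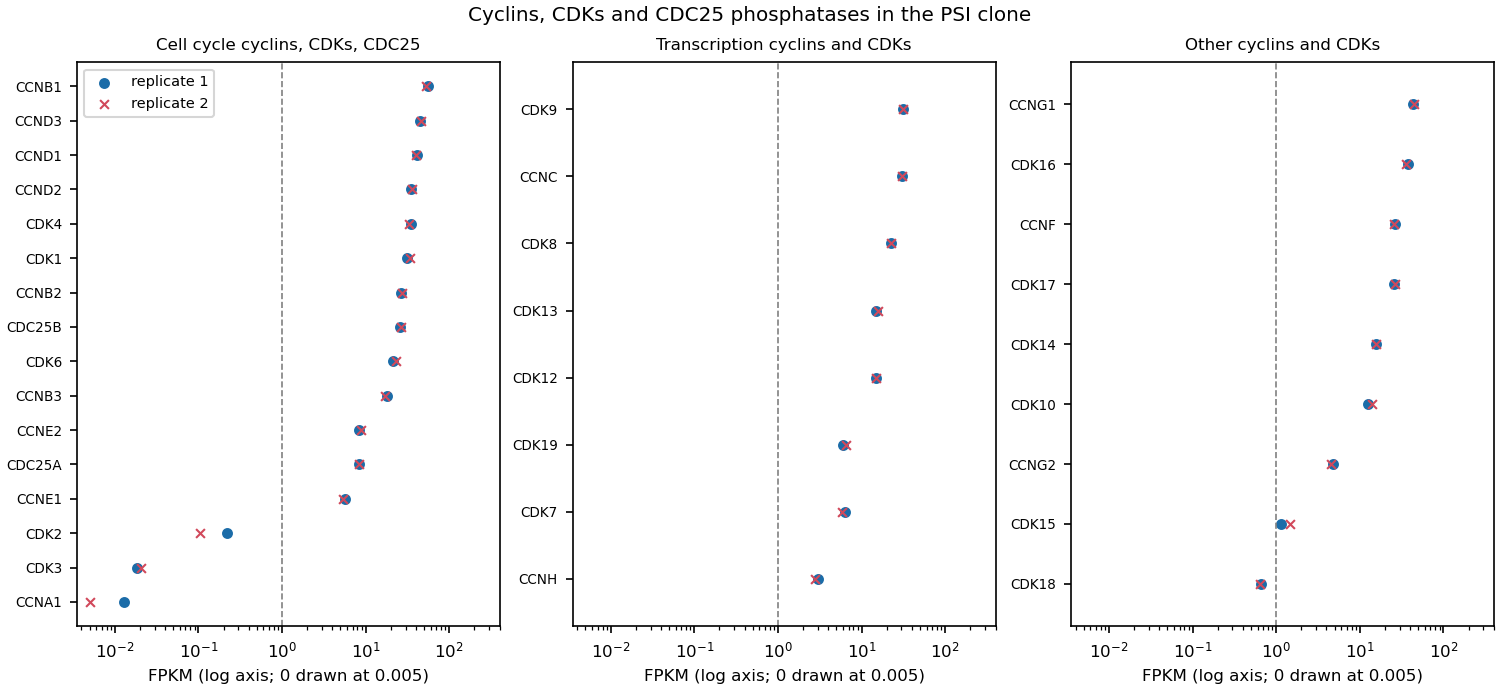
FPKM (log axis) of cell cycle cyclins, CDKs and CDC25 phosphatases (left), transcription cyclins and CDKs (middle) and the other cyclins and CDKs (right); circles are replicate 1, crosses replicate 2, the dashed line is 1 FPKM and values of 0 are drawn at 0.005. In the left panel CDK2, CDK3 and CCNA1 stand apart below 1 FPKM, and the other 13 genes lie between 5.30 and 55.4 FPKM.

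All 8 measured cyclins and CDKs that serve transcription reached 1 FPKM. CDK9, the kinase of the elongation factor P-TEFb, had 31.3 FPKM in each library. CCNC and CDK8, which form the kinase module of Mediator, had 30.7 ± 0.0677 and 22.3 ± 0.0424, and CDK19, the paralog of CDK8, had 6.25 ± 0.260. CDK12 and CDK13, which phosphorylate RNA polymerase II during elongation, were nearly equal at 14.8 ± 0.143 and 15.2 ± 0.441. CDK7 (6.08 ± 0.288) and its cyclin CCNH (2.87 ± 0.162), which form the CDK-activating kinase, were the lowest. CCNC lay 10.7 ± 0.628 times above CCNH.

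Among the remaining cyclins and CDKs, 8 of 9 reached 1 FPKM. CCNG1, a p53 target, was the highest with 43.7 and 44.7 FPKM, 9.39 ± 0.528 times its paralog CCNG2. The PCTAIRE kinases differed widely: CDK16 had 36.6 ± 1.04 FPKM, CDK17 had 25.8 ± 0.493 and CDK18 had 0.649 ± 0.0107. CCNF, the substrate receptor of an SCF ubiquitin ligase, had 25.9 ± 0.254. CDK14 (15.8 ± 0.00724) and CDK10 (13.2 ± 1.004) followed. CDK15 was the member just above the 1 FPKM level, with 1.15 and 1.48 FPKM from at least 11 and 13 reads, and CDK18 the one just below it, with 0.657 and 0.642 FPKM from at least 95 and 85 reads.

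Mitotic kinases and their partners were among the most abundant members. PLK1, the polo kinase of mitotic entry and spindle formation, had 74.0 and 74.2 FPKM, above 95.7% of all symbols. AURKB, the kinase of the chromosomal passenger complex, had 53.1 and 56.5 FPKM, and BIRC5 (survivin), which brings that complex to centromeres, had 58.6 and 60.2. The other passenger subunits, INCENP (31.1 ± 1.14) and CDCA8 (20.9 ± 0.642), were lower, so that the 4 subunits spanned 2.85-fold. TPX2, the spindle assembly factor that activates Aurora A, had 52.5 ± 0.624.

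The 5 measured spindle checkpoint genes of the rule all reached 10 FPKM, whereas the anaphase activator that the checkpoint acts on was listed at 0. UBE2C, the ubiquitin-conjugating enzyme of the anaphase-promoting complex, was the highest of the 98 members with 171 and 164 FPKM. BUB3 had 52.3 and 52.2 FPKM, BUB1B (BUBR1) 20.0 and 19.6, MAD2L1 12.3 and 13.2, BUB1 11.7 and 12.1, and the kinase TTK (MPS1) 10.9 and 11.7. Each library gave MAD2L1, BUB1 and TTK in this order, but the higher TTK value (11.65) lay just under the lower BUB1 value (11.70). BUB3 was 2.64 ± 0.0244 times BUB1B.

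CDC20 (ENSSSCG00000003949), the activator that carries the anaphase-promoting complex to cyclin B and securin, had no reads in either library. RefSeq places this protein-coding gene on chromosome 6 at chr6:167886266-167890587 of Sscrofa11.1, and no other gene there overlaps it. All 9 of the nearest-numbered identifiers that RefSeq places lie on the same chromosome. Low values need care in this table. Of 44 cytosolic ribosomal protein genes, which every cell uses, 4 were under 1 FPKM, a looser level than 0: RPL29, RPS2, RPS21 and RPS27A. Whether they are low for the same reason as CDC20 was not tested. The median ribosomal protein gene had 299.9 FPKM. Whether CDC20 is silent in PSI or is missed by the counting was not tested.

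**Figure D3:**
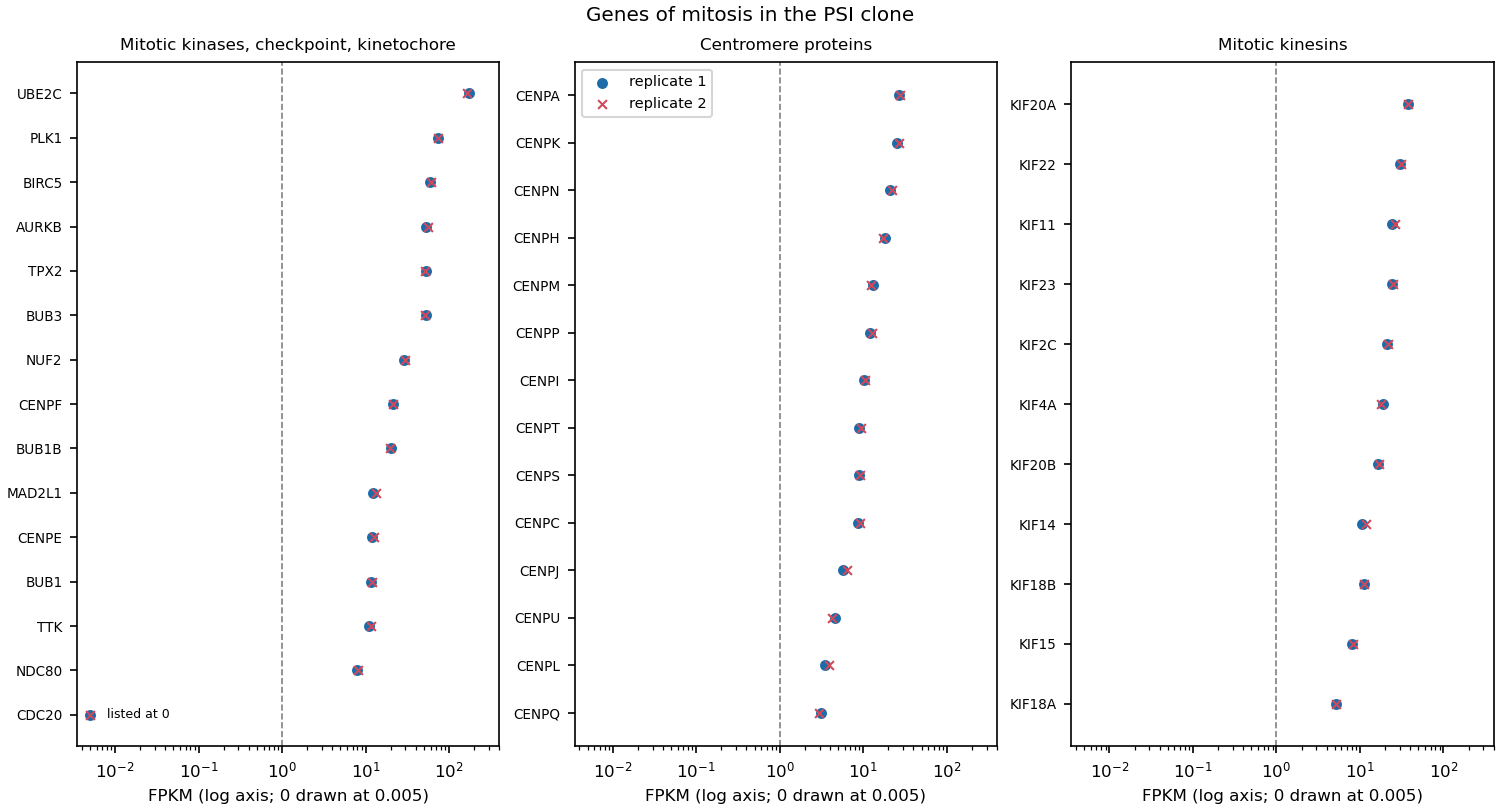
FPKM (log axis) of mitotic kinases, checkpoint and outer kinetochore genes (left), centromere proteins with the centriole protein CENPJ (middle) and mitotic kinesins (right); circles are replicate 1, crosses replicate 2, the dashed line is 1 FPKM and values of 0 are drawn at 0.005. Of the genes plotted here, only CDC20 falls under 1 FPKM, and UBE2C is the highest.

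The kinetochore, the protein plate that joins centromere to spindle, was expressed with unequal subunits. In the outer kinetochore, NUF2 had 28.5 and 29.6 FPKM and its binding partner NDC80 had 7.79 and 8.10, a ratio of 3.66 ± 0.00304. The other subunits of the same NDC80 complex were likewise unequal, SPC24 with 61.1 ± 1.13 and SPC25 with 7.77 ± 0.445. The proteins of the complex occur in equal numbers, whereas these FPKM values spanned 7.86-fold. The RefSeq model of NDC80 overlaps LOC110255193, and the identifiers of SPC24 and SPC25 were not checked by position. Whether the span is that of the transcripts was not tested. The large coiled-coil protein CENPF had 21.5 ± 0.0931 and the kinesin CENPE had 12.3 ± 0.362.

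All 13 measured centromere and inner kinetochore genes reached 1 FPKM, over an 8.89-fold range. CENPA, the histone H3 variant that marks the centromere, was the highest with 27.1 and 27.3 FPKM, 3.04 ± 0.0816 times CENPC, which binds CENPA nucleosomes. CENPK (26.0 ± 1.33), CENPN (21.5 ± 1.05) and CENPH (17.8 ± 0.673) came next. CENPM, CENPP, CENPI, CENPT, CENPS and CENPC lay between 8.95 and 12.6 FPKM. The lowest were CENPU (4.44 ± 0.260), CENPL (3.69 ± 0.259) and CENPQ (3.06 ± 0.0921). CENPU and CENPQ act in a shared subcomplex with CENPP, and CENPL pairs with CENPN. CENPJ, which despite its name builds centrioles, had 6.01 ± 0.448.

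Each of the 11 measured kinesins placed in the mitotic group reached 1 FPKM, and 9 reached 10. This count depends on the grouping: KIF2A and KIF2B, paralogs of KIF2C, were kept outside it, and KIF2B was listed at 0. KIF20A (MKLP2), the motor of cytokinesis that carries the passenger complex to the midzone, led with 38.0 and 37.9 FPKM. KIF22, a chromosome-arm motor, had 30.6 ± 0.280, and KIF11 (Eg5), which pushes spindle poles apart, had 25.2 ± 1.33. KIF23 (MKLP1), the centralspindlin motor, had 24.6 ± 0.336, and KIF2C (MCAK), a microtubule depolymerase, had 21.4 ± 0.271. KIF4A, KIF20B, KIF14 and KIF18B lay between 11.2 and 18.3 FPKM. The lowest were KIF15 (8.14 ± 0.256) and KIF18A (5.18 ± 0.0353), the latter 7.32-fold below KIF20A.

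The other kinesins, a group of mixed function, ranged from abundant general motors to KIF2B, which was listed at 0. Among them, 4 had 23.6 FPKM or more, 13 lay between 1.70 and 11.7, and 8 were under 1. KIF1C and KIF1B, carriers of vesicles and mitochondria, had 83.8 ± 0.171 and 47.4 ± 0.791 FPKM, and KIF5B, the ubiquitous heavy chain of conventional kinesin, had 82.5 ± 1.90. The heavy chains typical of neurons were near 0, KIF5C with 0.168 and 0.205 FPKM and KIF5A with 0.131 and 0.103. The neuronal motor KIF1A was also low beside its paralog KIF1C, with 3.82 and 4.22 FPKM, from at least 1057 and 1070 reads.

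KIF2A, a microtubule depolymerase that acts in neurons and also at spindle poles, was kept outside the mitotic group and had 23.6 ± 0.543 FPKM. KIF3A, KIF3B and KIF3C, which are related to one another, had 7.92 ± 0.410, 8.12 ± 0.178 and 11.7 ± 0.143. KIF7, the kinesin of Hedgehog signalling, had 3.46 ± 0.173. KIF16B, KIF13B, KIF13A and KIF21B lay between 8.997 and 9.40 FPKM, and KIF26B, KIF21A, KIF27 and KIF24 between 1.70 and 4.15. Of the 8 under 1 FPKM, KIF2B was listed at 0 and KIF19, KIF17, KIF5A, KIF5C, KIF9, KIF26A and KIF12 had between 0.0288 and 0.433.

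**Figure D4:**
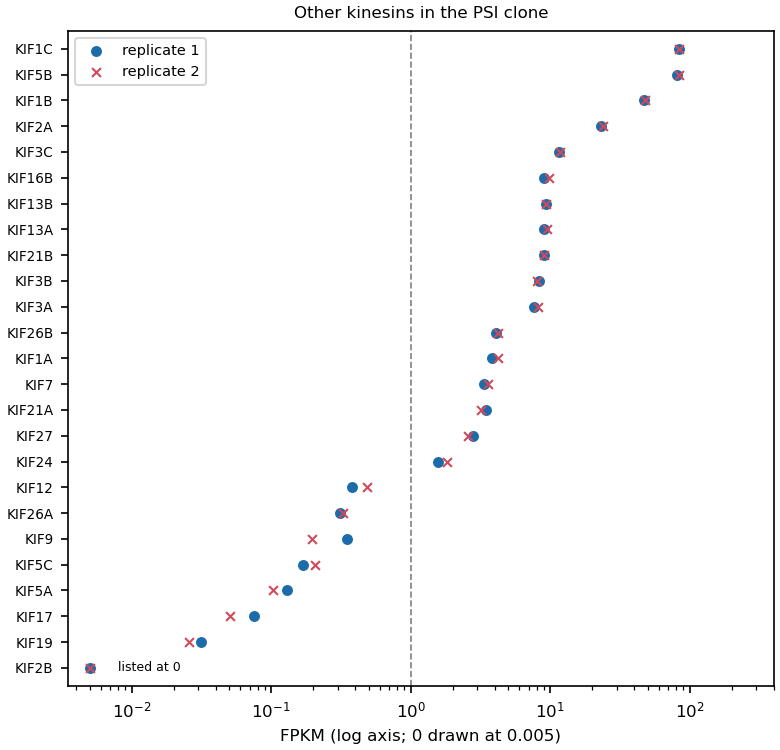
FPKM (log axis) of the 25 kinesins kept outside the mitotic group; circles are replicate 1, crosses replicate 2, the dashed line is 1 FPKM and values of 0 are drawn at 0.005. KIF1C and KIF5B are the highest and 8 genes lie below the line, where the libraries are farther apart on this axis.

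Other genes of cell division, listed by their role but with earlier results of these data known, were also widely expressed. Of 87 listed, 77 were measured. Of these, 75 (97.4%) reached 1 FPKM in both libraries, against 61.5% of all symbols. The median of the 77 was 11.4 FPKM, against 3.90 for all symbols. In the anaphase-promoting complex and its regulators, 14 of 15 reached it. The chain-elongating enzyme UBE2S had 215.8 ± 0.221 FPKM, ANAPC7 had 23.9 ± 0.0493 and FZR1 (CDH1), the activator of late mitosis and G1, had 20.8 ± 0.202, while FBXO5 (EMI1), ANAPC10 and CDC26 had 3.38 ± 0.0817, 1.37 ± 0.0401 and 0.458 ± 0.00253. FZR1 lay above every measured core subunit other than ANAPC7. CDC20, the other activator, was listed at 0, and whether the counting missed it was not tested.

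All 13 genes of the cohesin and separase list and all 8 of condensin reached 1 FPKM. RAD21, the cleavable ring subunit of cohesin, had 65.5 ± 2.45 FPKM, SMC3 39.3 ± 0.237 and SMC1A 33.96 ± 0.946, whereas PDS5B, CDCA5 (sororin) and SGO1 (shugoshin) had 8.86 ± 0.463, 8.59 ± 0.317 and 6.68 ± 0.0209. ESPL1, the protease separase, had 12.6 ± 0.819. In condensin, SMC4 (43.6 ± 0.165), SMC2 (30.8 ± 1.75) and NCAPG2 (22.9 ± 0.358) were above NCAPG, NCAPH and NCAPH2, the lowest at 4.08 ± 0.0822.

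All 14 measured outer kinetochore and checkpoint partners reached 1 FPKM, from SPC24, SKA2 (29.8 ± 0.611) and SPDL1 (21.6 ± 0.193) down to DSN1 (6.88 ± 0.638), ZWINT (5.92 ± 0.0359) and NSL1 (4.30 ± 0.136). The 11 genes of spindle and cytokinesis did so too, led by the midzone bundler PRC1 (65.4 ± 1.83), ANLN (48.98 ± 1.11) and RACGAP1 (36.0 ± 0.813), with DLGAP5 (15.0 ± 0.557), CIT (10.1 ± 0.351) and CEP55 (8.45 ± 0.644) lowest. The centriole genes SASS6, CEP152 and STIL had 10.03 ± 0.212, 5.80 ± 0.416 and 3.60 ± 0.0994.

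The regulators of mitotic entry had a median of 5.48 FPKM over 6 measured genes, all above 1 FPKM. CKS2, a small CDK-binding protein, had 28.4 ± 0.241 FPKM and ENSA 11.7 ± 0.0849, but the CDK1-inhibiting kinases WEE1 and PKMYT1 had 7.12 ± 0.0673 and 1.46 ± 0.0220, the Greatwall kinase MASTL 3.85 ± 0.0584 and BORA, the activator of Aurora A, 1.996 ± 0.0658. Of the factors that drive transcription of mitotic genes, MYBL2 (B-MYB) had 157.8 ± 0.750 and FOXM1 5.89 ± 0.0334. Their MuvB partners LIN54 and LIN9 had 12.5 ± 0.739 and 9.12 ± 0.249, and LIN37 had 0.0401 ± 0.00875.

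Gene models that overlap another gene make a level uncertain, since reads in the shared part may be dropped or, without strand, belong to the neighbour. Of the 94 members placed in RefSeq, 34 overlap another gene and 60 do not. The overlapping ones include CCND3 (with TAF8), CDK12 (with MED1), CCNH (with RASA1), PLK1 (with ERN2), KIF20A (with CDC23), KIF1C (with INCA1), KIF2A (with DIMT1) and CENPP (with ECM2, ASPN, OMD, OGN and IPPK). CDK1 (with LOC100152879), CCND2 (with LOC106507534), CCNE2 (with INTS8) and NDC80 (with LOC110255193) are also among them. CDC20, CDK2, CCNB1, CCND1, CDK4, UBE2C and TPX2 overlap none. Of the 60 members free of overlap, 52 (86.7%) reached 1 FPKM in both libraries.

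The libraries were compared to show the precision behind these levels. Among the 85 members at 1 FPKM or more, replicate 2 had between 0.915 and 1.29 times the FPKM of replicate 1, with a median of 1.02, and 54 of 85 were higher in replicate 2. For all 9139 symbols at that level the median was 1.00, and 4837 were higher in replicate 2. The median coefficient of variation was 2.72% for the members and 2.41% for all symbols. CDK15, the lowest of these members, gave the ratio of 1.29.

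An exact two-sided binomial test of the smallest read numbers that account for each value, adjusted by Benjamini-Hochberg over all 16327 identifiers with reads, separated the libraries at 1 of 96 members, where 1.11% of all identifiers were called. That member was CDK6, with at least 3399 and 3432 reads, which was higher in replicate 2 by a log2 ratio of 0.14 (adjusted p = 0.0111, exact binomial test). The RefSeq entry matched to CDK6 is marked lncRNA, as stated above. CDK4 (adjusted p = 0.109, exact binomial test) and KIF11 (adjusted p = 0.0590, exact binomial test) did not pass. Without adjustment, 17 of 96 members (17.7%) had p under 0.05 in the exact binomial test, against 10.2% of all identifiers. These shares were not matched for read number, and identifiers with few reads can rarely reach such a p. They therefore do not show that members differ more between the libraries than other genes. CDK2, with at least 23 and 10 reads, had an adjusted p of 0.506 in the same exact test. Since the true reads can be more, the test can miss differences. It compares these libraries and no condition.

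**Figure D5:**
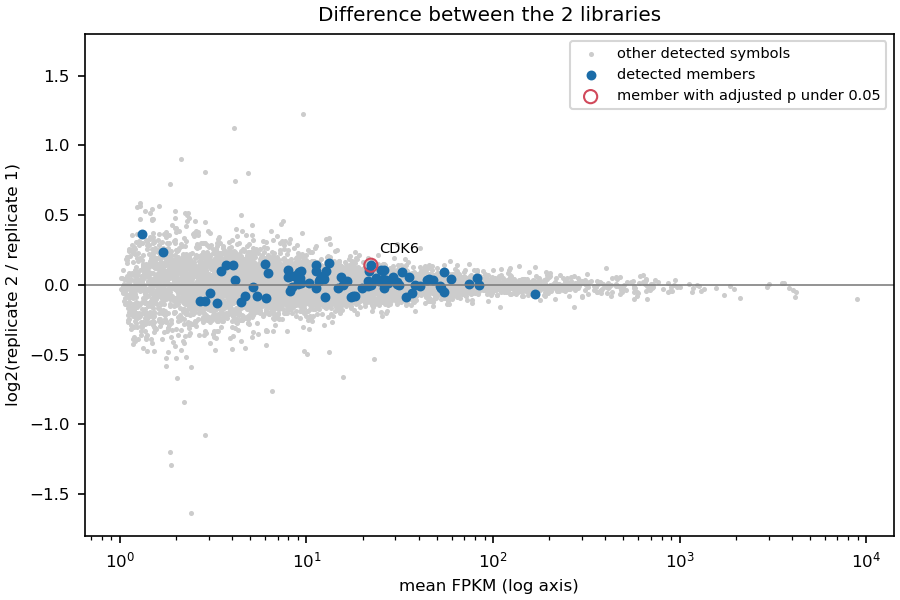
Log2 ratio of replicate 2 over replicate 1 against mean FPKM (log axis) for the 9139 symbols at 1 FPKM or more in both libraries; grey points are other symbols, blue points the 85 members and the red ring the member with an adjusted p under 0.05. The members lie close to 0, CDK6 is ringed at 0.14, and the widest scatter is among low genes.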

How the data were processed

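The 2 RNA-seq libraries of the PSI clone were made with the NEBNext Ultra kit per the labels' protocols. The submitters' processing notes name TopHat2 2.0.12, HTSeq 0.6.1 and the build Sscrofa11.1; no source used here gives the annotation release, strand setting or filters. FPKM values were deposited by the authors in 1 table, separately for each library. HTSeq in its default mode does not count reads with several alignments or with several overlapping gene models, which can lower genes with copies or overlapping neighbours: 34 of the 94 members placed in RefSeq overlap another gene.

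A table of gene names gave symbols for 14857 of 25880 identifiers. Coordinates are those of RefSeq on Sscrofa11.1, matched by symbol. For all 63 placed members with an identifier number under 18000, most of the 5 nearest identifiers on each side lay on the same RefSeq chromosome. A gene counted as detected where both libraries had 1 FPKM or more, and log2 levels used a pseudocount of 1. Whole reads were worked out from the FPKM values, which move in steps of 1 read: the library totals are those that make gene lengths whole, and each gene was given the shortest length (50 to 30000 bp) under which its reads in both libraries came out whole, with a tolerance of 1.2 times the rounding error of the deposited values. This gave reads for 100% of the 16327 identifiers above 0; these are minimum numbers, which can understate the true reads, and they summed to 90.8% of each total. The recovery and the test were tried on simulated libraries with known reads. There, 83.1% of genes with reads were given their true reads, and 0% were given more. Of 100 genes changed 1.5-fold, 99% were called, and 7 unchanged genes were called as well. The share of 99% was not split by read number. It therefore does not show how often a change in a gene with few reads, such as CDK2, would be called. Reads carry no molecular identifiers, so the test covers counting error alone. No gene length can be recovered for a gene listed at 0, so no upper limit is given for it.

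Python 3.11.15, scipy 1.17.1 and statsmodels 0.14.6 were used. Members, role groups, lists and tests were chosen with earlier results of these data known. Values are printed for the 4 highest members of each role, members under or next to 1 FPKM, the core cyclins, CDKs and checkpoint genes, and the 3 highest and lowest genes of each other list; further members were named after their values were seen. Promoter and protein sequences were not used here.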

Additional observations from a re-analysis of the deposited data

How the results depend on the processing

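The count of members at 1 FPKM or more, 85 of 98, was 86 at 0.5 FPKM (87.8% of members, 65.2% of all symbols), 73 at 5 FPKM (74.5% and 45.8%), 87 at 1 TPM (88.8% and 66.7%) and 85 without either replicate. Among the 60 members placed in RefSeq with no overlapping gene, an alternative chosen after seeing the data, it was 52 (86.7%), fewer because fewer genes entered. At 5 FPKM the other kinesins fell to 11 of 25, and the counts of the other role groups and of the other cell division genes stayed within 1.5 times under every alternative tried. The median member level of 3.71 on the log2 scale (all symbols 2.29) became 3.61 with a pseudocount of 0.1 (2.0), 3.53 as a mean (2.38), 3.77 among genes at 0.1 FPKM or more (3.26), 5.08 after rescaling to TPM (3.54) and 3.75 without overlapping or unplaced members. Without replicate 1 or 2 it ranged from 3.69 to 3.72. It lay above that of all symbols in each of these settings. The exact binomial test called 2 members, CDK6 and KIF11, of 85 when the adjustment covered only genes whose mean reached 1 FPKM (235 of 10738 identifiers, 2.19%), and CDK6 alone with the median log2 ratio of the libraries set to 0 (179 of 16327, 1.1%). The adjusted p of CDK6 ranged from 0.00739 to 0.0144 over these settings. No paired analysis was possible because the study holds 1 group, and the comparison of the libraries cannot be made without either of them. Depth limits the values of members near 0, such as CDK2, CDK3, CCNA1, KIF17 and KIF19, whose true read numbers are not known.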
